A study of Mus musculus with 8 samples.

Results

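The Fos, Jun and ATF3 members of the AP-1 transcription factor family were followed at the RNA level in mouse mammary tumours that carried either floxed or wild-type Stat3. The members were the 8 genes Fos, Fosb, Fosl1, Fosl2, Jun, Junb, Jund and Atf3, taken by gene name from every non-control probe of the array (Jund is listed there as Jund1). They were read by 10 of 41174 probes, and all 8 were among the 21557 genes kept for testing. Fosl2 and Junb had 2 probes each, and the single probes of Fos and Jun were printed as 10 spots each on every array. For those 2 genes with 2 probes, the brighter one stands for the gene below and the other is given beside it.

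AP-1 is a dimer of basic leucine zipper proteins. Jun proteins pair with themselves or with Fos proteins, Fos proteins need a Jun partner, and ATF3 pairs with Jun proteins or with itself. The dimers bind the TPA response element, TGAGTCA, or the closely related cyclic AMP response element, TGACGTCA. Fos, Fosb, Jun, Junb and Atf3 are immediate early or stress-induced genes whose transcripts appear and decay quickly after growth factor or stress signals, while Jund is expressed more steadily. In the mammary gland, AP-1 acts downstream of ErbB receptor and MAP kinase signalling, and STAT3 is known to activate Fos and Junb transcription after cytokine stimulation.

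The tumours came from virgin female mice and were taken 6 weeks after they became palpable. One group, Stat3flx/flx/NIC, held 5 individual tumours homozygous for floxed Stat3. The other, Stat3wt/wt/NIC, held 3 RNA samples that each pooled 5 tumours in which Stat3 was wild-type. Both groups carried the MMTV-NIC transgene, in which the mouse mammary tumour virus promoter drives an activated ErbB2 (Neu) together with Cre. The wild-type tumours therefore carried the Cre transgene too. Which cells of the floxed tumours had recombined Stat3, stromal and immune cells included, was not measured. Tumour RNA (Cy5) was compared on each of 8 Agilent arrays with Stratagene universal mouse reference RNA (Cy3), and dyes were never swapped. A value below is the log2 ratio of tumour over reference after normalization, and a difference is the floxed mean minus the wild-type mean on that scale.

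Stat3 itself was lower in every floxed tumour than in every pool, by 2.05 on the log2 scale (SE 0.24, exact permutation p = 0.0179, the smallest that 56 splits of 8 samples allow, limma adjusted p = 0.109). All 10 luminal epithelial markers were well above background on all 8 arrays, with median log2 ratios of 3.46 to 4.06 in floxed tumours and 3.62 to 4.17 in pools. Median tumour signals were 642 to 891 against backgrounds of 47 to 58, with 71.7% to 77.3% of probes clear of background. Some samples stood apart in their marker genes. Pool 3 had the highest basal list median (1.08 above the wild-type mean against -0.44 and -0.61 in the other pools) and the highest luminal one among pools (0.37 against -0.32 and -0.06). Floxed tumour 2 had the highest medians for fibroblast (2.42), macrophage (0.87) and neutrophil markers (0.94), and floxed tumour 5 for skeletal muscle (2.21). Of the neutrophil markers 4 of 9 were measured, and Cxcr2, Ly6g, Camp, Ngp and Retnlg were not among the genes kept. Between the groups, 9 of 9 skeletal muscle markers were higher in floxed tumours (median difference 0.55, 1 with an unadjusted p under 0.05) and 6 of 8 basal markers lower (median -0.64, 1 with an unadjusted p under 0.05). Of 9 T and natural killer cell markers, 7 were higher and 2 lower (median 0.15), and 2 of the higher ones had an unadjusted p under 0.05. The luminal and macrophage lists each had 1 marker lower at an unadjusted p under 0.05. Of all 73 measured marker genes of 9 cell types, 6 passed that threshold, against 4.97% of all genes tested. Of all 21557 genes, 10177 were higher and 11380 lower in floxed tumours. The arrays lay on 3 slides, each with both groups: floxed tumours 2 and 3 with pool 3 on slide 1, floxed tumour 1 with pool 2 on slide 2, and floxed tumours 4 and 5 with pool 1 on slide 3.

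Sequences are shown for the probe pairs that disagreed and for the promoters of the 2 members with an unadjusted p under 0.05. Which exons or transcripts the probes read was not analysed here. For Junb, 2 probes of 60 bases each overlapped, and the 22 bases they share are in capitals in the adjoining 30 bases of each. Their mm7 positions are chr8:83563097-83563156 and chr8:83563059-83563118, on the minus strand.

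Junb probe A_51_P159201, last 30 bases: acacgcacTTCGTGTCTAAAGTCTATTTTA

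Junb probe A_51_P159194, first 30 bases: TTCGTGTCTAAAGTCTATTTTAagatgtgt

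The Fosl2 probes do not overlap. Their starts lie 4536 bases apart on the plus strand, at chr5:31185231-31185290 and chr5:31189767-31189826 in mm7, and the first 30 bases of each are shown.

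Fosl2 probe A_51_P507242, first 30 bases: gattgctgagctgcagaaggagaaggagaa

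Fosl2 probe A_52_P484903, first 30 bases: ttgaggaagaaaatattcagctttgtataa

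The Fos and Atf3 promoters are printed because these 2 members differed between the groups in opposite directions. Each is the 250 bases before the RefSeq start in GRCm38.p6, read toward the gene, with matches to the searched motifs in capitals. Fos lies on the plus strand (chr12:85473640-85473889) and Atf3 on the minus strand (chr1:191183334-191183583).

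Fos promoter: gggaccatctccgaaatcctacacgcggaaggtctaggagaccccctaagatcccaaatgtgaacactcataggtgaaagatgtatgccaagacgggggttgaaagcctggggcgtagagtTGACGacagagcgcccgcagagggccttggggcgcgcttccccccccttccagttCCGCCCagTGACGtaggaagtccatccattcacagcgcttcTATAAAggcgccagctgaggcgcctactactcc

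Atf3 promoter: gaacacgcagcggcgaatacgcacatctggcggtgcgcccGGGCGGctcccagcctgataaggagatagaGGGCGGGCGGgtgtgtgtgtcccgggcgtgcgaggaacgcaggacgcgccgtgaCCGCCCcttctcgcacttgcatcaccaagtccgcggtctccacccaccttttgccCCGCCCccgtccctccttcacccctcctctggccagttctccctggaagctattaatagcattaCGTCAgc

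The Fos window held TGACG, the core of the cyclic AMP response element, at -129 to -125 and at -66 to -62, a GC box at -74 to -69 and a TATA box at -33 to -28. The Atf3 window held 5 GC boxes, of which a pair overlapped, and CGTCA, the reverse complement of TGACG, at -7 to -3. RefSeq promoters were matched for 7 of the 8 members. TGACG stood in 4 of them (Fos, Fosb, Junb and Atf3), against 17.8% of 32851 mouse promoters of the same length on either strand. GC boxes (GGGCGG) stood in 5 of 7 members, against 32.7% of all promoters, and CCAAT in 2 of 7 (Jun and Junb), against 33.8%. The full response elements TGAGTCA and TGACGTCA stood in 0 of 7 within this window (4.46% and 1.55% of all promoters). The STAT-type motifs TTCNNNGAA and TTCCNGGAA and the CArG box also stood in 0 of 7 (7.02%, 0.913% and 1.47% of all promoters). TATAAA was present in 1 of 7, the Fos promoter, against 12.4% of all. TGACG is part of TGACGTCA, and TTCCNGGAA is a stricter form of TTCNNNGAA. These are letter matches in a short window and not mapped binding sites.

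Fos, the founding member and a partner that raises the DNA affinity of Jun, was lower where Stat3 was floxed. The Fos log2 ratio was -4.03, -3.33, -3.47, -3.61 and -3.11 in floxed tumours 1 to 5, and -3.24, -2.53 and -2.39 in pools 1 to 3. Pools 2 and 3 were the 2 highest samples, and the groups overlapped only through floxed tumour 5, which lay just above pool 1. The means were -3.51 ± 0.34 (SD, n = 5) and -2.72 ± 0.45 (SD, n = 3), a difference of -0.79 (SE 0.26, 95% interval -1.37 to -0.21), or 1.73-fold lower in floxed tumours. The SD of single tumours and that of pools are not of the same kind, since pooling averages over tumours, whereas the limma fit assumes 1 variance for both groups. Every permutation p given here likewise treats single tumours and pools as exchangeable and takes no account of the slides. The limma p was 0.0130 unadjusted and 0.942 after Benjamini-Hochberg adjustment over all genes, and the exact two-sided permutation p was 0.0357. Within slides the difference was -1.01, -1.50 and -0.12 on slides 1, 2 and 3, so the direction was shared and the size was not. Without pool 2 the difference was -0.70 and without pool 3 it was -0.63, and in both fits the unadjusted limma p passed above 0.05 (0.0525 and 0.0603). Pool 3 is also the sample with the highest basal markers, and the part of that in the Fos difference was not tested. In tissue RNA such as this, fewer cells of a type and less RNA per cell cannot be told apart.

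Atf3, a stress-induced factor that can repress as well as activate AP-1 and cyclic AMP response sites, was higher where Stat3 was floxed. The Atf3 log2 ratio was 0.04, 0.72, -0.12, -0.11 and -0.19 in floxed tumours 1 to 5, and -0.75, -0.45 and -0.40 in pools 1 to 3. All 5 floxed tumours lay above all 3 pools, and floxed tumour 2 stood well above the other 4. The means were 0.07 ± 0.37 (SD, n = 5) and -0.53 ± 0.19 (SD, n = 3), a difference of 0.60 (SE 0.22, 95% interval 0.10 to 1.11), or 1.52-fold higher in floxed tumours. The limma p was 0.0245 unadjusted and 0.942 adjusted over all genes, and the exact two-sided permutation p was 0.0179, the smallest this design allows. Within slides the difference was 0.70, 0.49 and 0.60, close to the same size on each. Floxed tumour 2 is also the sample with the highest fibroblast and macrophage markers. Without it the Atf3 difference was 0.44, with an unadjusted limma p of 0.0188, and the part of these markers in the remainder was not tested. The unadjusted p rose above 0.05 without pool 1 (difference 0.49, p of 0.0955) and when arrays were centred on their medians in place of loess (difference 0.53, p of 0.0794).

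Fos and Atf3 were the 2 of 8 members with an unadjusted p under 0.05 in the limma fit, 1 lower and 1 higher, while 4.97% of all genes tested passed that threshold. In floxed tumours 1.6% of all genes were higher and 3.37% lower at that threshold. Of the 8 members, 0 passed an adjusted p of 0.05 (adjusted p from 0.942 to 0.996), and 1 gene of all those tested did (0.00464%). Atf3 was the only member whose groups did not overlap, against 3.2% of all genes (1.02% with the floxed tumours above and 2.18% with them below). In the fit over all probes, 2 of the 10 member probes had an unadjusted p under 0.05, against 4.81% of all probes. Counting direction alone, 3 members were higher and 5 lower, with a median difference of -0.13. Over all genes 10177 were higher and 11380 lower, with a median of -0.01. Junb and Fosl2 count as lower by their brighter probes, and on their other probes the differences were 0.13 and 0.33. The member count and the member median therefore depend on the choice of probe.

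**Figure D1:**
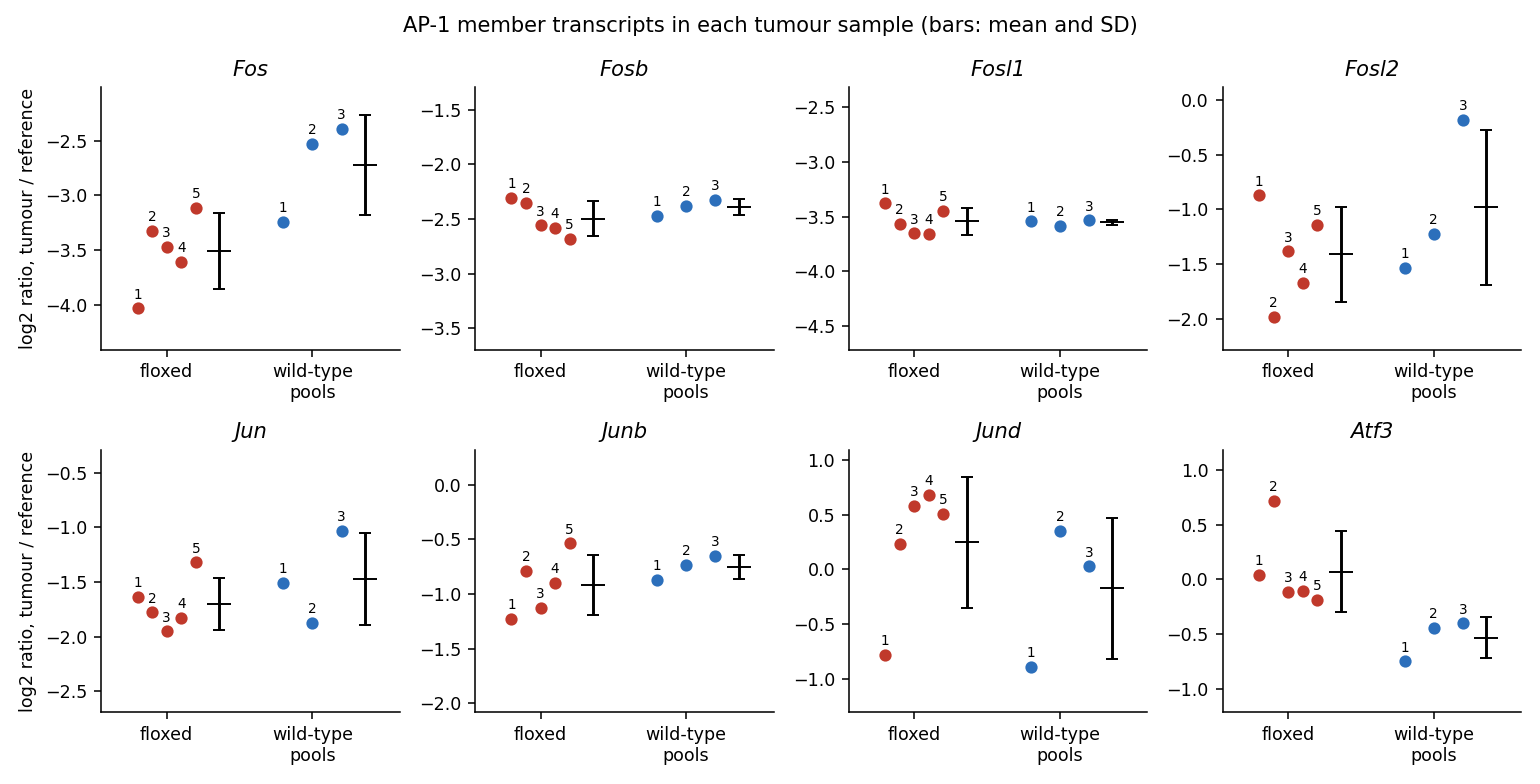
Log2 ratio of tumour over reference RNA for each of the 8 members in the 5 floxed tumours (red, numbered 1 to 5) and the 3 wild-type pools (blue, numbered 1 to 3), with mean and SD as bars; every panel spans the same number of log2 units but has its own offset. The 5 floxed tumours lie above the 3 pools for Atf3, pools 2 and 3 are highest for Fos, and the Fosl1 points are nearly level.

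Of the other Fos genes, 0 of 3 had an unadjusted limma p under 0.05. Fosb, an immediate early relative of Fos, had log2 ratios of -2.31, -2.35, -2.56, -2.58 and -2.68 in the floxed tumours and -2.47, -2.38 and -2.33 in the pools. The pools lay inside the range of the floxed tumours, and the difference was -0.10 (SE 0.14, 95% interval -0.42 to 0.21, exact permutation p = 0.339). Fosl1 encodes Fra-1, which lacks a strong transactivation domain and is known from invasive breast cancer. Its log2 ratio was -3.38, -3.57, -3.65, -3.65 and -3.45 in the floxed tumours and -3.54, -3.58 and -3.53 in the pools. Here too the pools lay within the floxed range, and the difference was 0.01 (SE 0.13, 95% interval -0.28 to 0.30, exact permutation p = 0.893). Whether either differs from Fos in its response was not tested.

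Fosl2, which encodes Fra-2, gave 2 probes that disagreed. Its brighter probe, the one further along the gene, read -0.87, -1.99, -1.38, -1.68 and -1.14 in the floxed tumours and -1.54, -1.23 and -0.18 in the pools. Pool 3 was the highest and floxed tumour 2 the lowest sample, and the groups overlapped. The difference was -0.43 (SE 0.34, 95% interval -1.21 to 0.35, exact permutation p = 0.339). It was -1.50, 0.35 and 0.13 within slides 1, 2 and 3, so slide 1, which holds pool 3, had the opposite direction to the others. Without pool 3 it was -0.03, and over the 8 fits that each left out 1 sample it ran from -0.71 to -0.03. The other probe read -0.28, -0.26, -0.02, -0.39 and 0.24 in the floxed tumours and -0.59, -0.23 and -0.58 in the pools. On that probe pool 3 was the second lowest sample, and the difference was 0.33 (SE 0.18, 95% interval -0.09 to 0.74, exact permutation p = 0.143). The brighter probe minus the other ran from -1.73 in floxed tumour 2 to 0.40 in pool 3, so the pair did not rank the samples alike. Tumour signals were 169.7 to 338.2 on the dimmer probe and 4626 to 14590 on the brighter one, all well above background.

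Among the Jun genes, the obligate partners of Fos proteins, no difference passed an unadjusted p of 0.05. Jun had log2 ratios of -1.63, -1.78, -1.95, -1.83 and -1.32 in the floxed tumours and -1.51, -1.87 and -1.03 in the pools. Pool 3 and floxed tumour 5 were highest, and the groups overlapped through most of their range. The difference was -0.23 (SE 0.22, 95% interval -0.72 to 0.26, exact permutation p = 0.375), with -0.83, 0.24 and -0.06 within slides 1, 2 and 3. Without pool 3 the Jun difference was -0.0092, and without pool 2 it was -0.43.

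Junb, a Jun protein that can antagonise c-Jun and is itself an immediate early gene, had log2 ratios of -1.23, -0.79, -1.13, -0.90 and -0.54 in the floxed tumours and -0.87, -0.73 and -0.65 in the pools. Floxed tumour 5 was the highest and floxed tumour 1 the lowest, with the pools between them. The difference was -0.16 (SE 0.18, 95% interval -0.57 to 0.24, exact permutation p = 0.375). The overlapping second probe read -1.77, -1.12, -1.43, -1.18 and -0.83 in the floxed tumours and -1.78, -0.999 and -1.42 in the pools, a difference of 0.13 (SE 0.25, exact permutation p = 0.643). Although they share the 22 bases shown above, the first probe exceeded the second by 0.27 to 0.91, with the gap widest in pools 1 (0.91) and 3 (0.76) and 0.27 in pool 2. The sign of the Junb difference therefore depended on the probe, and on both probes its 95% interval held 0.

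Jund is the Jun protein that is not an immediate early gene, and among the members its log2 ratio varied most between samples. Its log2 ratio was -0.78, 0.24, 0.58, 0.68 and 0.51 in the floxed tumours and -0.89, 0.35 and 0.03 in the pools. Floxed tumour 1 and pool 1 were low and lay apart from the other 6 samples, 1 in each group. They also had the lowest Fos of their groups and the highest adipocyte marker medians of all samples. These medians were 1.79 and 0.67 relative to the wild-type mean, against -1.05 to 0.48 in the others. Of 8 adipocyte markers 7 were measured, and 4 of these were not well above background on all 8 arrays. The part of these markers in the Jund and Fos values was not tested. The Jund difference was 0.42 (SE 0.38, 95% interval -0.45 to 1.29, exact permutation p = 0.393). Within slides it was 0.38, -1.13 and 1.49, with the low floxed tumour on slide 2 and the low pool on slide 3. Without floxed tumour 1 the difference was 0.67, with an unadjusted limma p of 0.0478, and without pool 1 it was 0.06. In the tumour channel alone, without the reference, the Jund difference was 0.23. Jund reference signals were 72540 beside floxed tumour 1 and 59810 beside pool 1, against 40890 to 51000 on the other arrays. Jund tumour signals were 53800 and 47270 in these samples, against 76430 to 106300 in the others, so both channels entered the low ratios.

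**Figure D2:**
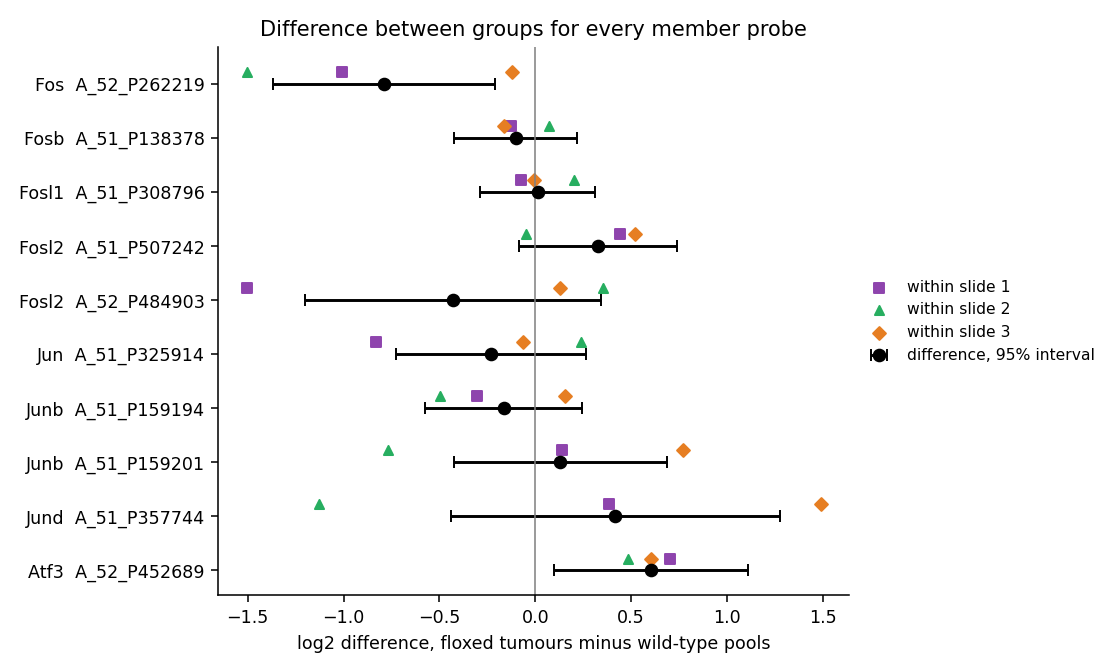
Difference between floxed tumours and wild-type pools on the log2 scale for each of the 10 member probes (black point, limma estimate with 95% interval), with the difference within each slide as coloured symbols. The Fos interval lies below 0 and the Atf3 interval above it; the slide values lie close together for Atf3 and over 1 log2 unit apart for Jund, Fos, the lower Fosl2 probe, the lower Junb probe and Jun.

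The repeat spots of Fos and Jun show how far printing and scanning contribute to these values. For Fos, the SD among spots on one array was 0.02 to 0.07 (median 0.04, 78 of 80 spots used after outlier flags), against 0.34 between the floxed tumours and 0.45 between the pools. For Jun, it was 0.03 to 0.07 over 80 spots, against 0.24 and 0.42. Spots on one array share the same labelled RNA, so this spread leaves out extraction, amplification and labelling. The 10 Fos spots of pool 2 ranged from -2.58 to -2.46 and those of pool 3 from -2.46 to -2.35, while those of floxed tumour 1 ranged from -4.12 to -3.94.

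**Figure D3:**
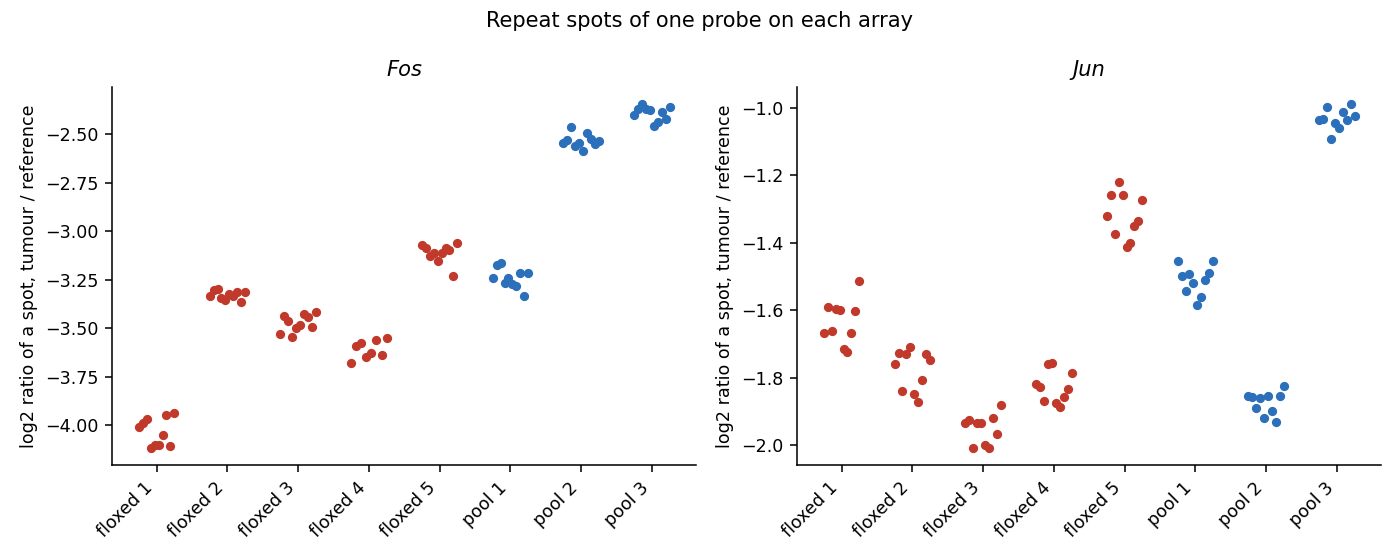
Log2 ratio of each used spot of the Fos probe (left) and the Jun probe (right) on each of the 8 arrays, floxed tumours in red and wild-type pools in blue; horizontal position within an array only separates the points. The spots of an array cluster far more closely than the arrays differ, and the Fos clusters of pools 2 and 3 sit above all other arrays.

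The members also differed in how much they varied over the 8 samples. The SD of Jund (0.61) was larger than that of 89.8% of genes, that of Fosl2 (0.55) than 86.9%, that of Fos (0.54) than 86.4% and that of Atf3 (0.43) than 76.1%. Jun (0.31, 54.5%) and Junb (0.23, 31.8%) were near or below the middle, where the median SD of all genes was 0.30. Fosb (0.14) exceeded 8.94% and Fosl1 (0.09) 2.36% of genes. The ratio of the rapidly induced Fosb was thus among the least variable over these samples, and that of Jund among the more variable. These SDs are of ratios over single tumours and pools together, and they include the spread of the reference channel. Against the reference RNA, which is a mixture of cell line RNAs, the mean tumour ratio was 11.7-fold lower for Fosl1, 9.29-fold lower for Fos, 5.49-fold lower for Fosb, 3.06-fold lower for Jun, 2.38-fold lower for Fosl2 and 1.81-fold lower for Junb. Atf3 (1.11-fold lower) and Jund (0.941 as reference over tumour) were close to it. These ratios describe tumour against reference for a probe and not levels between genes.

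Pool 3 had the highest Fos, Fosl2 and Jun values of all 8 samples, and the second highest Fosb and Junb. Floxed tumour 1 had the lowest Fos and Junb and the second lowest Jund, but the highest Fosb and Fosl1 and the second highest Fosl2 and Atf3. The members therefore did not rise and fall together. After each gene was centred on its mean over the 8 arrays, the root mean square difference between a pair of members was smallest for Fosb and Fosl1 (0.13), the 2 least variable, and then for Fosl1 and Junb (0.24). It was largest for Fosl2 and Jund (0.84). That of Fos was 0.37 with Junb, 0.46 with Jun and 0.77 with Atf3.

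By the same measure, the genes whose pattern was closest to a member were found for the 3 most variable members among 18992 genes detected on all arrays. For Jund they were Spred1 (0.11), an inhibitor of Ras to MAP kinase signalling, 2310004I03Rik (0.13) and Ptp4a3 (0.14), a protein tyrosine phosphatase, where the median over all candidates was 0.65. All 3 showed the low values of floxed tumour 1 and pool 1. For Fosl2 they were Slco2a1 (0.17), a prostaglandin transporter, 4931408A02Rik (0.18) and Mapkbp1 (0.19), against a median of 0.57. For Fos they were Igfbp5 (0.20), a secreted IGF binding protein, Acsl4 (0.21), an acyl-CoA synthetase, and Rps27 (0.21), a ribosomal protein gene, against a median of 0.57. Because these genes were picked for their pattern over the same arrays, their group differences are no separate observation. In the tumour channel alone, without the reference, that difference shrank from -0.90 to -0.22 for Igfbp5 and from -0.47 to -0.28 for Acsl4, and turned from -0.51 to 0.098 for Rps27.

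Other genes of the pathway were taken from 4 lists, of which 94 of 98 genes were measured. Of these, 4 were higher and 3 lower at an unadjusted limma p under 0.05, or 7.45% against 4.97% of all genes, and none passed the adjusted threshold (adjusted p of 0.942 for each of the 7). With the slide as a fixed block, 3 of these 7 (Creb1, Batf2 and Plau) kept an unadjusted p under 0.05. The other 4 (Mapk8, Dusp1, Ier5 and Tgfb1) did not. In that fit 6.72% of all genes passed, but the 7 were already selected by the main fit, so their count cannot be set against that share. Among 21 other basic leucine zipper factors, not all of them known AP-1 partners, 16 were higher and 5 lower in floxed tumours. Their median difference was 0.14. For this and the following lists, the counts over all genes were 10177 higher and 11380 lower. Of the 21 factors, 1 passed the unadjusted threshold in each direction. Batf2, an interferon-inducible partner of Jun proteins, read 4.23, 4.19, 1.72, 4.02 and 1.65 in the floxed tumours and 1.23, 0.94 and 1.58 in the pools. All floxed tumours lay above the pools, 3 of them by far, and the difference was 1.91 (SE 0.68, exact permutation p = 0.0357). Creb1, which binds the cyclic AMP response element, read -0.41, -0.28, -0.26, -0.08 and -0.24 in the floxed tumours and 0.22, -0.02 and 0.26 in the pools. All floxed tumours lay below the pools (difference -0.41, SE 0.14, exact permutation p = 0.0179) on the brightest probe. With the mean of its probes the Creb1 difference was -0.074, and without pool 1 or pool 3 the unadjusted limma p was 0.0508 or 0.0501. Batf3 differed by 0.49 (exact permutation p = 0.161), with overlap.

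Upstream of AP-1, 21 of 23 listed kinases and factors were measured, of which 13 were higher and 8 lower, with a median difference of 0.02. Mapk8, which encodes JNK1, a kinase that phosphorylates c-Jun, passed the unadjusted threshold. It read 0.40, -0.04, 0.07, 0.46 and 0.07 in the floxed tumours and 0.83, 0.34 and 0.78 in the pools, and floxed tumours 1 and 4 overlapped with pool 2. The difference was -0.46 (SE 0.18, exact permutation p = 0.0714), and within slide 2 it was 0.06. With the mean of its probes the Mapk8 difference was -0.23, and the unadjusted threshold was also missed with median centring. Mapk3, which encodes ERK1, differed by 0.36 (exact permutation p = 0.161), and Srf, the serum response factor that drives Fos transcription, by -0.27 (exact permutation p = 0.161).

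Genes that are commonly induced beside Fos were followed as well. Of 23 measured of 24, 14 were higher and 9 lower, with a median difference of 0.20, and 1 passed the unadjusted threshold in each direction. Dusp1, a phosphatase that inactivates MAP kinases, read -2.20, -1.82, -2.30, -1.71 and -1.66 in the floxed tumours and -2.56, -2.29 and -2.32 in the pools. Floxed tumour 3 overlapped with pool 2, and the difference was 0.45 (SE 0.19, exact permutation p = 0.0536). Ier5 read -1.50, -1.85, -1.08, -2.06 and -1.22 in the floxed tumours and -0.95, -1.30 and -0.49 in the pools, a difference of -0.63 (SE 0.27, exact permutation p = 0.107) with overlap. Dusp6, an ERK phosphatase, differed by 0.50 (exact permutation p = 0.107) as a ratio but by 0.037 in the tumour channel alone. The median of this list was 0.04 in the tumour channel alone.

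Of 30 genes reported as AP-1 targets, 29 were measured, 18 higher and 11 lower, with a median difference of 0.16. That median was 0.044 with median centring and ran from 0.025 (without pool 1) to 0.18 when 1 sample was left out. At the unadjusted threshold 2 were higher and 0 lower. Plau, the urokinase plasminogen activator, read -2.26, -1.32, -2.65, -2.03 and -1.53 in the floxed tumours and -3.09, -2.32 and -4.15 in the pools. Only floxed tumour 3 lay below the highest pool, and the difference was 1.23 (SE 0.43, exact permutation p = 0.0536), with 2.16, 0.06 and 1.31 within slides and 0.75 without pool 3. Tgfb1, the TGF-beta 1 ligand, differed by 0.91 (SE 0.39, exact permutation p = 0.125) with overlap, and by -0.51 within slide 2. Krt14, a basal keratin, differed by -0.82 (exact permutation p = 0.125), where pool 3 read 0.40 and the other 7 samples -2.02 to -1.48. Over the 20 other fits described next, the unadjusted p was under 0.05 in 19 for Plau, 18 for Batf2, 17 for Creb1, 12 each for Mapk8 and Ier5, 10 for Dusp1 and 9 for Tgfb1. Batf2 missed it without pool 1 or pool 2, and Plau without pool 3.

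**Figure D4:**
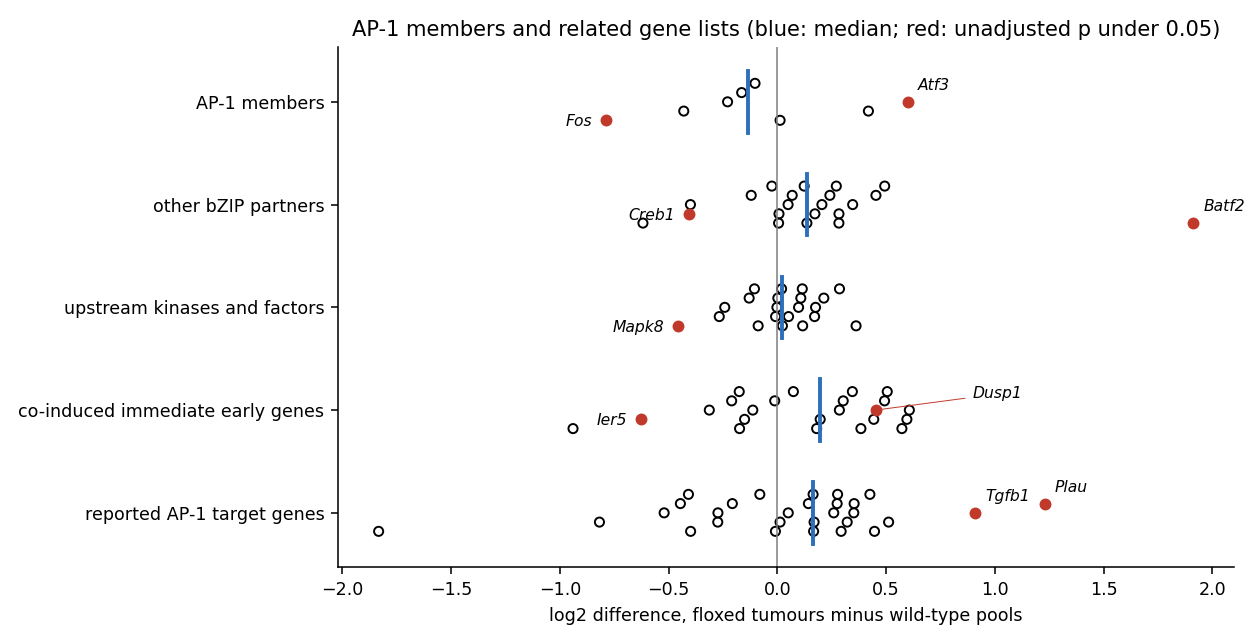
Difference between floxed tumours and wild-type pools on the log2 scale for the 8 members and for the measured genes of 4 related lists, each circle a gene, spread vertically only to separate points, with the list median as a blue line. Red points, with names, had an unadjusted limma p under 0.05. As drawn, the median is below 0 for the members (-0.13) and above 0 for the other lists (0.02 to 0.20). Junb and Fosl2 are drawn by their brighter probes, and their other probes differed in the opposite direction (0.13 and 0.33).

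The Fos and Atf3 differences were recomputed in 20 other fits, 12 with another processing choice and 8 without 1 sample. Fos ran from -1.05 to -0.63 and passed an unadjusted p of 0.05 in 18 of 20, and Atf3 ran from 0.44 to 0.67 and passed in 18 of 20. Neither changed direction in any fit or slide. The adjusted p stayed at 0.551 or above for both in all of these fits.

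**Figure D5:**
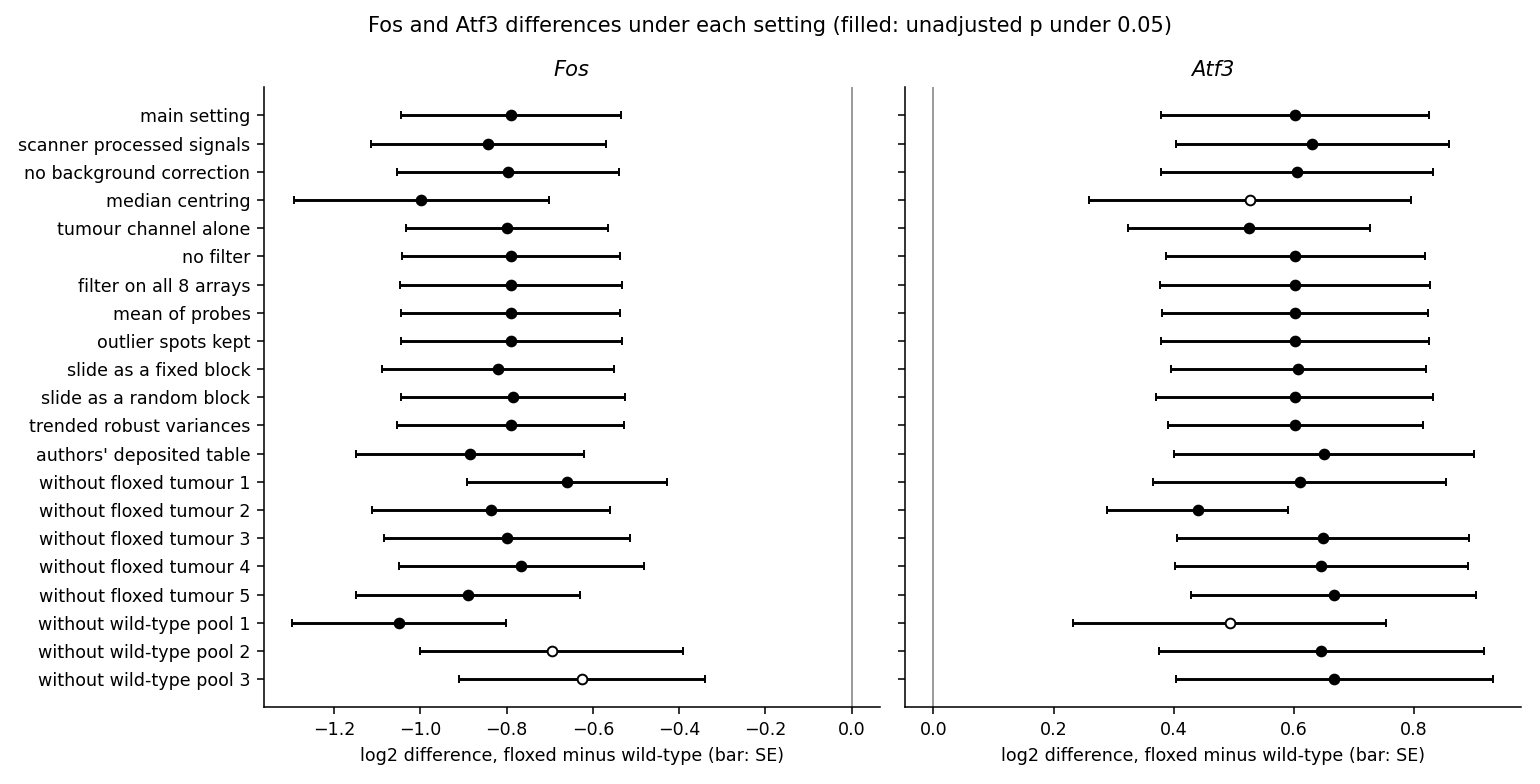
Fos (left) and Atf3 (right) difference between floxed tumours and wild-type pools on the log2 scale, with SE, in the chosen setting and 20 alternatives; filled points have an unadjusted limma p under 0.05. All Fos points lie below 0 and all Atf3 points above 0, and the open points are the fits without pool 2 or 3 for Fos, and without pool 1 or with median centring for Atf3.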

How the data were processed

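Per the file headers, spots were read with Agilent Feature Extraction 9.5.3.1 (protocol GE2-v5_95_Feb07, design 014868, probe coordinates on mm7). The authors deposited mean and background intensity values without normalization, processed intensity values that the scanner software had background-subtracted and dye-normalized, and a table of log2 values. RMA is named beside the scanner software in the submitters' processing notes. Each column of the deposited log2 table followed its array's tumour over reference ratio (r from 0.989 to 0.994, slope 0.972 to 1.25, column medians 0.00215 to 0.0105), which fixes direction and approximate scale; its centring and normalization stay unknown, so it served as an alternative.

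With limma 3.58.1 in R 4.3.3, background was corrected by normexp (offset 50) and ratios were normalized by loess, with control spots at weight 0. Outlier spots were left out and repeat spots averaged. Probes well above background in the tumour channel on at least 3 of 8 arrays were kept (31302), and the brightest named each gene. Groups (5 against 3) were compared with lmFit and eBayes, two-sided, with Benjamini-Hochberg adjustment over 21557 genes. The procedure was also run on simulated data in which both groups had the same SD for each gene. The unlike spread of single tumours and pools was therefore not simulated. Gene symbols came from accessions (22951 probes), current symbols (6659) or the array's own names (11564).

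Named genes were all members, the 3 genes of smallest p in each pathway list, the 3 closest patterns to each of the 3 most variable members, and Stat3. Members and lists were chosen with earlier results of these data known. Nothing in the labels says how pooled tumours were chosen, and p-values measure only the spread between these samples. Array number limits the precision.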

Additional observations from a re-analysis of the deposited data

Results flagged for a closer look

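A sample was singled out where its gap to the nearest other sample of its group was large against the group's range (Dixon's criterion at 95%). Of 44 sets of 5 floxed tumours tested, 4 were singled out, where chance would give 2.2 for sets picked without regard to these values. Some sets were genes picked because they followed Jund, Fosl2 or Fos over these arrays, including 2310004I03Rik and Rps27 below. The 4 are therefore not separate observations, and 2.2 is only a rough guide. For Atf3, floxed tumour 2 read 0.72, and the other 4 read -0.19 to 0.04. The gene 2310004I03Rik was -0.95 in floxed tumour 1 against 0.31 to 0.63, and Rps27 was -0.039 in floxed tumour 1 against 0.66 to 0.75. The median of the co-induced immediate early genes, relative to the wild-type mean, was 0.31 in floxed tumour 5 against 0.02 to 0.09; that tumour also had the highest skeletal muscle marker median (2.21), whose part in this was not tested.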

How the results depend on the processing

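Over 20 other fits and the 3 slides taken singly, 453 of the 504 recomputed values behind the report's counts, member differences and list medians kept their direction and their side of the threshold or stayed within their spread. No paired analysis was possible because the labels number the pools but give the floxed tumours no matching numbers. The number of genes past an adjusted p of 0.05 was 0 in place of 1 with the scanner's processed signals, no background correction, the tumour channel alone, no filter, the filter on all 8 arrays, the slide as a fixed block, trended robust variances and the authors' deposited table, and 0 to 2 when 1 sample was left out. At an unadjusted p of 0.05 it was 625 with median centring, and 475 to 1899 when 1 sample was left out, the extremes being without pool 3 and without pool 2. The number of members was 1 with median centring, where Fos passed and Atf3 (0.53) did not, and 1 to 3 when 1 sample was left out, with 1 for each pool left out. The Fosl1 difference turned to -0.011 with processed signals, -0.089 with median centring, -0.067 in the tumour channel alone and -0.086 in the authors' deposited table. Rps27 turned to 0.098 in the tumour channel alone and 4931408A02Rik to 0.018 with the mean of probes, and the median of the co-induced immediate early genes was 0.037 in the tumour channel alone. The causes were not tested.

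With 1 sample left out, Fos ran from -1.05 to -0.63, Fosl1 from -0.029 to 0.041, Jun from -0.43 to -0.0092, Jund from 0.058 to 0.68, Atf3 from 0.44 to 0.67, 2310004I03Rik from -0.032 to 0.56, 4931408A02Rik from -0.40 to 0.016 and Mapkbp1 from -0.47 to 0.064. The list medians ran from 0.0091 to 0.23 for other basic leucine zipper factors, -0.068 to 0.14 for upstream kinases and 0.052 to 0.27 for co-induced genes. They ran from 0.025 to 0.18 for AP-1 targets and from -0.95 to -0.064 for basal markers. Within slide 1, Fosl2 was -1.50 and Jun -0.83. Within slide 2, Fos was -1.50, Fosb 0.074, Fosl1 0.20, Fosl2 0.35, Jun 0.24, Junb -0.50, Jund -1.13, Mapk8 0.064 and Tgfb1 -0.51. Within slide 3, Fos was -0.12, Fosl2 0.13, Junb 0.15 and Jund 1.49. These slide values have no test. All member probes were well above background on all arrays, so their values are not bounds.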
